A study of Mus musculus with 7 samples.

Results

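The 133 protein-coding genes described here encode voltage-gated and potassium ion channels and their auxiliary subunits. They were taken from a count table of 38124 genes, 21173 of them protein-coding. The choice was by symbol: Kcn followed by a letter, Scn with a number and a or b, and Cacna, Cacnb or Cacng. Not every gene with such a symbol is included. By ion, 93 belong to potassium channels, 14 to sodium channels and 26 to calcium channels. The list was chosen with earlier results of these data known.

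Potassium channels set the resting membrane potential and end action potentials, sodium channels drive the upstroke of the action potential, and calcium channels couple depolarization to transmitter release and gene regulation. A voltage-gated channel has pore-forming alpha subunits, and auxiliary subunits tune its gating and its delivery to the membrane. In embryonic neocortex, progenitors hold a negative resting potential through potassium conductances, and voltage-gated sodium currents appear as neurons mature.

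RNA-Seq was done on cells with the strongest RFP fluorescence (High RFP), sorted from neocortex of the Tis21-CreERT2 mouse line at E15.5. Tis21 drives a tamoxifen-activated Cre in neurogenic progenitors, and embryos of both groups carried it and received tamoxifen. At E13.5 the neocortex was electroporated with a control construct (3 libraries, replicates 1, 2 and 4) or with a conditional Sox9 expression construct (4 libraries, replicates 1 to 4), and cells were collected 48 hours later. Cre excision switched on nuclear RFP from either construct and, in addition, Sox9 from the latter. The methods describe sorts from several pooled embryos and the legends single neocortices, so p-values measure the spread between these libraries.

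Library totals ran from 10465562 to 12907778 counts in control and from 4429704 to 10520214 in the Sox9 group, of which replicate 4 was the shallowest. Sox9 mRNA was at 63.9 ± 27.5 CPM (library-scaled counts; SD, n = 3) in control and 40.0 ± 8.33 CPM (SD, n = 4) in the libraries labelled Sox9. It was therefore not higher where the label places it, and directions below refer to the labels. Other marker genes differed between the groups by edgeR's test. Olig2 and S100b rose, with log2 fold changes of 4.44 (adjusted p = 0.00371) and 2.76 (adjusted p = 0.00966), and Eomes fell, with one of -2.25 (adjusted p = 4.9e-05). Levels below are given per library or as mean ± SD over the 3 control and 4 Sox9 libraries, and 95% intervals are those of the log2 fold change. The cells are labelled as neural progenitors, yet 10 neuronal markers summed to 14261 to 17964 CPM in control and 13323 to 15480 CPM in the Sox9 group, with none called. Sums of 8 radial glial markers were 551 to 1071 and 263 to 403 CPM, with 4 called lower, and those of 5 intermediate progenitor markers 213 to 246 and 127 to 156 CPM, with 2 called lower. Oligodendrocyte precursor markers summed to 0.814 to 1.56 and 9.73 to 27.7 CPM, with 4 of 5 tested called higher. Olig2, one of them, had no count in 2 of the 3 control libraries. For endothelial markers the sums were 3.15 to 11.1 and 13.6 to 36.8 CPM, with 2 of 5 called higher. Those of 5 mural markers were 6.21 to 8.86 and 10.6 to 20.7 CPM, with 1 called higher (Cspg4, which is also on the oligodendrocyte precursor list). Without Cspg4 the mural sums were 5.83 to 8.26 and 8.22 to 15.8 CPM, so that the lowest Sox9 library was just under the highest control library. Of these 4 markers 3 had log2 differences above 0 and 1 below, and none was called. Interneuron markers summed to 4.26 to 4.78 and 7.94 to 12.8 CPM, with none of 3 tested called. Astrocyte markers summed to 30.5 to 56.7 and 22.8 to 28.8 CPM, with S100b and Slc1a2 called higher and Aldh1l1 lower of 4 tested. Microglial markers summed to 8.03 to 26.0 and 10.3 to 46.6 CPM, with 1 of 5 called higher, and those of 5 erythroid markers 1.82 to 24.2 and 12.6 to 90.9 CPM, with 1 called higher. What part these cell types have in the channel results was not tested, and fewer cells of a type and less RNA per cell cannot be told apart in bulk libraries.

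Of the 133 channel genes, 93 passed the filter on low counts and 40 did not, with 1 to 70 counts over all 7 libraries. In the libraries labelled Sox9 against control, 15 of the 93 rose and 1 fell (edgeR's quasi-likelihood test, adjusted p-value under 0.01). Of all 14267 protein-coding genes tested, 9.96% rose and 3.88% fell. The genes that rose included Kcnv2, Kcnh4, Kcne2, Kcnj16, Kcng3 and Kcnn4 for potassium, Scn10a, Scn4a and Scn7a for sodium, and Cacna1g, Cacna1f, Cacnb2, Cacna2d4 and Cacna1a for calcium. The gene that fell was Cacng5. The median log2 fold change was 0.54 over the 93 channel genes and -0.06 over all protein-coding genes tested (0.13 and -0.01 with cyclic loess scaling). For 30 of the 93 every library labelled Sox9 was above every control library, and for 2 every one was below, beside 19.8% and 18.4% of all protein-coding genes. With cyclic loess scaling 2 channel genes rose (Cacna1a and Kcnh4) and 1 fell (Cacng5), beside 2.18% and 1.77% of all. With DESeq2's size factors 15 rose and 1 fell, beside 9.70% and 6.53%. The count of risen channel genes was 8 without control replicate 1, 9 without control replicate 2 and 9 without Sox9 replicate 1, where 5.82%, 4.60% and 6.30% of all protein-coding genes rose.

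**Figure D1:**
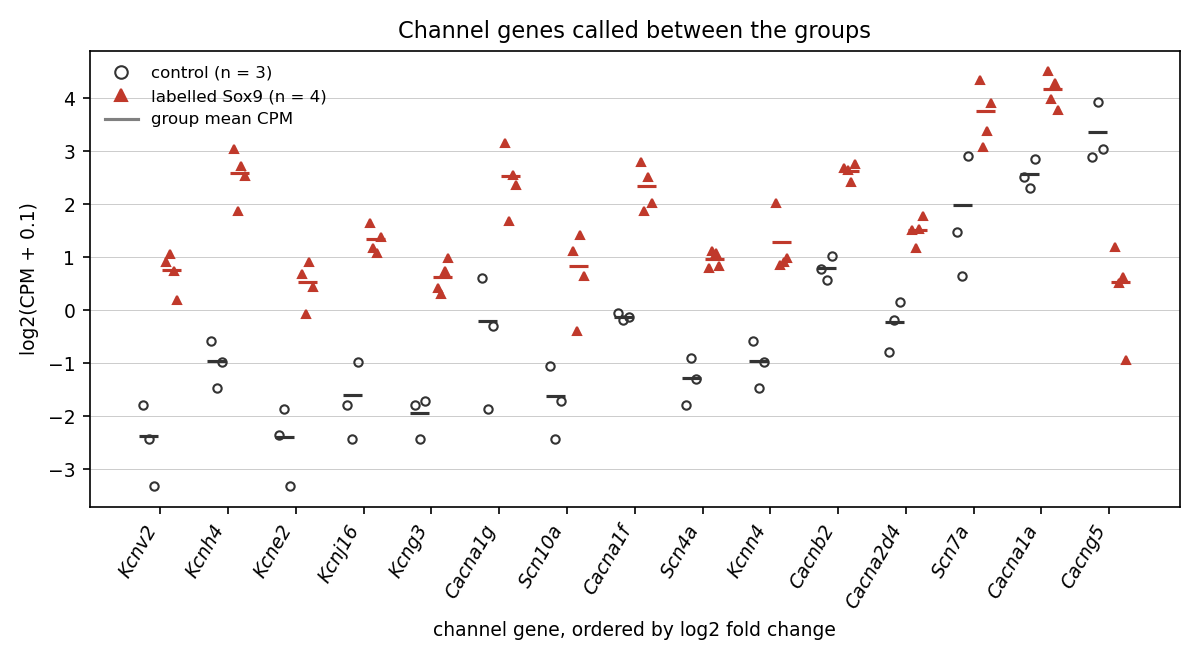
Log2(CPM + 0.1) in each of the 7 libraries (y axis) for 15 channel genes that passed the test (x axis, ordered by log2 fold change), with open circles for control, triangles for the libraries labelled Sox9 and lines at the mean CPM of a group. Cacng5 has its higher values in control, and in each of the other 14 every library labelled Sox9 lies above every control library.

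Most channel genes that rose were scarce in control. The filter asked for about 0.956 CPM in at least 3 libraries, which 64 of the 93 met by the 3 control libraries alone. The other 29 fell short in at least 1 control library and needed libraries labelled Sox9 to pass, and 12 of the 15 risen genes were among these. Of the 30 genes whose libraries labelled Sox9 all lay above control, 16 were among the 29 as well. Among all protein-coding genes tested 1421 rose, and 395 of these met the filter by control alone. All Sox9 libraries were above all control libraries for 2820, and 947 of these met the filter by control alone. Of the 64, 3 rose (Cacna1a, Scn7a and Cacnb2) and 1 fell (Cacng5), or 4.69% higher, beside 3.54% higher and 4.95% lower of the 11167 protein-coding genes that met it by control alone. Their median log2 fold change was 0.12, with 35 above 0, beside -0.16 for those protein-coding genes. All Sox9 libraries were above all control libraries for 14 of the 64 and below them for 2, beside 8.48% and 23.4% of those protein-coding genes. This restriction was chosen after the values were seen.

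Among channel genes with an average log2 CPM under 1, 8 of 21 rose and none fell, beside 21.6% and 0.145% of all protein-coding genes in that range. Between 1 and 4, 7 of 53 rose and 1 fell, beside 17.1% and 2.14%. Above 4, none of 19 was called, beside 0.888% and 6.35%. The medians of the log2 fold changes of channel genes in these ranges were 1.81, 0.67 and -0.12, and those of all protein-coding genes 1.53, 0.26 and -0.22. By gene span, 5 of 27 channel genes under 30 kb rose, beside 8.61% higher and 4.05% lower of all. From 30 to 100 kb 5 of 24 rose and Cacng5 fell, beside 9.85% and 3.98%. Above 100 kb 5 of 42 rose, beside 14.8% and 3.07%.

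**Figure D2:**
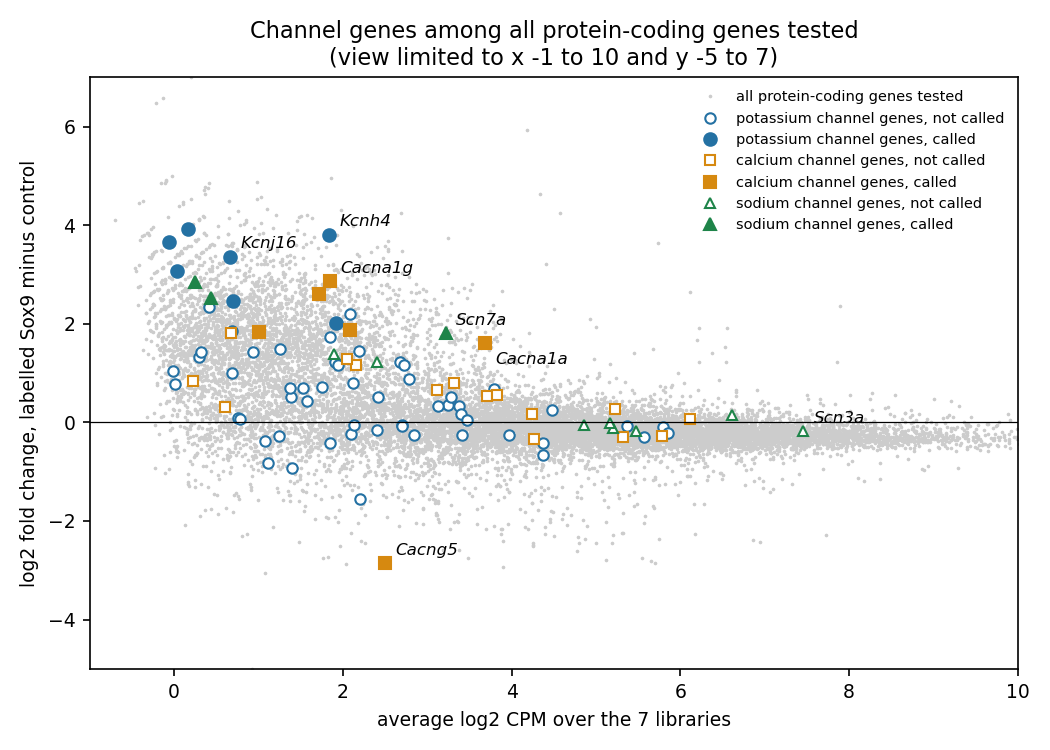
Log2 fold change of the libraries labelled Sox9 against control (y axis) by average log2 CPM (x axis) for protein-coding genes in grey and, by ion, for channel genes, filled where they passed the test, with a few named. Channel genes that rose lie between 1.61 and 3.93 at low or middle levels, and the 19 channel genes above a log2 CPM of 4 lie between -0.66 and 0.27.

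Summed over all 133 genes, channel transcripts came to 1308, 1163 and 1243 CPM in control and to 1352, 1320, 1391 and 1189 CPM in the libraries labelled Sox9. The groups overlapped. Potassium channel genes made up 489 ± 45.3 CPM in control and 529 ± 49.4 CPM in the Sox9 group, and sodium channel genes 441 ± 24.2 and 440 ± 20.1 CPM (SD, n = 3 and 4). Calcium channel genes made up 312, 301 and 311 CPM in control and 358, 345, 357 and 318 CPM in the Sox9 group, without overlap. The sum for the 10 pore-forming calcium channel genes was 52.1 ± 8.16 and 94.2 ± 16.4 CPM, and that for the 4 beta subunit genes 135 ± 3.70 and 130 ± 10.9 CPM.

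All 10 pore-forming calcium channel genes were tested, and all 10 had log2 fold changes above 0, with a median of 1.00. Of all protein-coding genes tested, 45.9% were above 0, with 88.05% under an average log2 CPM of 1 and 63.3% from 1 to 4, the ranges of all of the 10 but Cacna1b. Of the 10, 4 needed libraries labelled Sox9 to pass the filter (Cacna1f, Cacna1g, Cacna1i and Cacna1s, the last with control replicate 4 among its 3 libraries). Cacna1a, Cacna1f and Cacna1g passed the test. Cacna1a (ENSMUSG00000034656, chr8:84388440-84640246, GRCm38, plus strand) encodes the pore of P/Q-type channels, which trigger transmitter release at many synapses. It was at 5.64, 4.87 and 7.12 CPM in control and at 22.7, 15.8, 19.6 and 13.6 CPM in the libraries labelled Sox9. The groups stood well apart, and every Sox9 library was above every control library. Its log2 fold change was 1.61 (SE 0.25, adjusted p = 5.95e-04), and it passed the test without any single library. An antisense gene, Gm16183, overlaps its exons, and whether the counting used strand is not stated.

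Cacna1g, the pore of a T-type channel that opens at low voltage, was at 1.43, 0.174 and 0.712 CPM in control and at 8.79, 3.12, 5.81 and 5.03 CPM in the Sox9 group. The control values are 2 to 15 counts, and none reached the lowest Sox9 library. Its log2 fold change was 2.87 (SE 0.56, adjusted p = 0.00237). Leaving out 1 library gave 2.38 to 3.66, and Cacna1g was called in all 7 of these fits. The other T-type pores were not called: Cacna1h differed by 0.54 on the log2 scale (SE 0.23, adjusted p = 0.0853) and Cacna1i by 1.81 (SE 0.53, adjusted p = 0.0183), both without overlap between the groups. Cacna1f encodes an L-type pore best known from photoreceptors. It had 9, 9 and 8 counts in control against 50, 38, 50 and 19 in the Sox9 group, or 0.819 ± 0.0393 against 5.01 ± 1.51 CPM. All libraries labelled Sox9 lay above control, with a log2 fold change of 2.60 (SE 0.41, adjusted p = 7.44e-04). With cyclic loess scaling and limma neither Cacna1g (1.88, adjusted p = 0.0193) nor Cacna1f (1.48, adjusted p = 0.0114) was called.

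The L-type pores of brain and heart, Cacna1c and Cacna1d, did not pass the test. Cacna1c was at 2.01, 2.00 and 3.76 CPM in control and 5.63, 3.21, 6.60 and 7.97 CPM in the Sox9 group, a log2 difference of 1.16 (SE 0.39, adjusted p = 0.0357). Cacna1d was at 5.35, 6.52 and 8.75 CPM and at 14.01, 10.7, 14.3 and 8.60 CPM, a log2 difference of 0.80 (SE 0.27, adjusted p = 0.0328). In each of the pair 1 Sox9 library fell among the control values. Cacna1b, the N-type pore and the most abundant of the 10, was at 17.4 ± 3.97 and 19.6 ± 4.30 CPM, with a log2 difference of 0.18 and a 95% interval from -0.29 to 0.65.

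Among auxiliary calcium channel subunits, Cacnb2 rose, Cacna2d4 rose and Cacng5 fell. Cacnb2, a beta subunit that brings pores to the membrane, was at 1.62, 1.39 and 1.93 CPM in control and at 6.32, 6.14, 5.25 and 6.71 CPM in the libraries labelled Sox9. Both groups were tight and far apart, with a log2 fold change of 1.88 (SE 0.33, adjusted p = 0.00144), and with cyclic loess scaling it was not called (1.22, adjusted p = 0.0165 in limma). Antisense genes overlap exons of Cacnb2. The abundant beta subunits were not called: Cacnb3 was at 67.2 ± 4.44 and 70.6 ± 5.97 CPM, a log2 difference of 0.07 (95% interval -0.20 to 0.34), and Cacnb4 at 44.4 ± 2.65 and 36.2 ± 5.26 CPM, a log2 difference of -0.29 (95% interval -0.62 to 0.03). Cacna2d4, an alpha2delta subunit known from the retina, had 5, 9 and 10 counts in control against 20, 23, 25 and 16 in the Sox9 group. Its groups did not overlap, and its log2 fold change was 1.84 (SE 0.45, adjusted p = 0.00822), but it passed the test in 1 of the 7 fits that left out a library, the one without Sox9 replicate 2. Cacna2d1, the abundant alpha2delta subunit bound by gabapentin, was at 61.1 ± 6.38 and 50.01 ± 6.65 CPM, a log2 difference of -0.28 (95% interval -0.59 to 0.03).

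Cacng5 (ENSMUSG00000040373, chr11:107874605-107915055, GRCm38, minus strand) belongs to the gamma or TARP family, of which several members escort AMPA receptors. It was at 7.36, 15.2 and 8.14 CPM in control and at 2.20, 1.32, 1.45 and 0.419 CPM in the libraries labelled Sox9. The highest Sox9 library was below the lowest control library. The mean was 10.2 ± 4.32 CPM in control and 1.35 ± 0.729 CPM in the Sox9 group, a log2 fold change of -2.86 (SE 0.41, adjusted p = 3.76e-04), or 7.26-fold lower. The neighboring TARP gene Cacng4, at chr11:107732357-107794557, was at 33.4 ± 6.83 and 40.1 ± 3.98 CPM, a log2 difference of 0.27 (95% interval -0.09 to 0.63) that was not called. Of the 4 gamma or TARP genes tested, Cacng5 was the single one below 0.

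The 250 bases before the RefSeq start of Cacng5 (GRCm38.p6, chr11:107915056-107915305, minus strand) are shown with those of Kcng3 (chr17:83631896-83632145, minus strand), a potassium channel gene that rose. They stand for the channel gene that fell and a scarce one that rose, and their RefSeq start is also the start of the gene in the annotation used here. Capitals mark CG dinucleotides.
Cacng5: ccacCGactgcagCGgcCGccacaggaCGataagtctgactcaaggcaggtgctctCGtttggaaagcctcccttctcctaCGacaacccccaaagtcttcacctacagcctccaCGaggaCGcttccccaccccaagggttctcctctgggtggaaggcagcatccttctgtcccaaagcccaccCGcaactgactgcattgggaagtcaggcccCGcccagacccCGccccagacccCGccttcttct
Kcng3: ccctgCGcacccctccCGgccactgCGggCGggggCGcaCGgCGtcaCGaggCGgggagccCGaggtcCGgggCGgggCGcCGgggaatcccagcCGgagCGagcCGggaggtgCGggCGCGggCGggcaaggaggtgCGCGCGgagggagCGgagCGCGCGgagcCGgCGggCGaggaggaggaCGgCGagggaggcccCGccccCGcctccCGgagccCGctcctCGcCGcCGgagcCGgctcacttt
The Cacng5 sequence holds 12 CG dinucleotides and that of Kcng3 41, beside a median of 6 over 32851 promoter windows of RefSeq. A core motif of SOX factors, AACAAT, was searched on both strands of windows from 250 bases before to 50 bases after each start. Of the 133 channel genes 98 had such a window. The motif was in 10.7% of all windows and in 1 of 17 windows of the 11 called channel genes that had any, that of Cacnb2. Such a match is a description of letters and not a binding site.

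Of 93 potassium channel genes 61 were tested, and 7 rose and none fell. This is 11.5% higher, near the 9.96% of all protein-coding genes, and all 7 needed libraries labelled Sox9 to pass the filter. Their median log2 fold change was 0.52. Among 28 tested voltage-gated alpha subunits 4 rose, and among 10 auxiliary subunits, 11 calcium- or sodium-activated and 7 inward rectifier genes 1 rose each. None of 5 tested K2P leak channel genes was called.

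Kcnh4 (ENSMUSG00000035355, chr11:100740376-100759942, GRCm38, minus strand) encodes an alpha subunit of the ELK branch of ether-a-go-go-related channels. It had 6, 3 and 4 counts in control against 59, 38, 58 and 27 in the libraries labelled Sox9, or 0.574, 0.261 and 0.407 against 8.10, 3.59, 6.48 and 5.66 CPM. Every Sox9 library exceeded every control library several-fold. Its log2 fold change was 3.81 (SE 0.48, adjusted p = 1.79e-04), and it passed the test without any single library. Kcnh7, a relative of the ERG branch named here after its values were seen, was at 24.8, 21.0 and 31.8 CPM in control and 15.1, 12.4, 21.7 and 16.1 CPM in the Sox9 group. Its groups overlapped, and it was not called, with a log2 difference of -0.66 (SE 0.22, adjusted p = 0.0308).

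Kcnv2 and Kcng3 encode electrically silent alpha subunits, which form channels only together with other alpha subunits. Kcnv2 had 2, 1 and 0 counts in control against 13, 21, 14 and 5 in the Sox9 group, and Kcng3 had 2, 1 and 2 against 9, 12, 14 and 9. Neither overlapped between the groups, but the control values are a handful of reads. The ratio of summed counts, scaled to library size, was 17.8 (95% counting interval 5.77 to 89.0) for Kcnv2 and 8.86 (3.52 to 28.6) for Kcng3, with adjusted p-values of 0.00156 and 0.00267. The call for Kcng3 was lost without control replicate 1 or 2, and that for Kcnv2 was kept without any single library. With cyclic loess scaling and limma, Kcnv2 differed by 0.93 on the log2 scale against 3.93 in edgeR and was not called (adjusted p = 0.19).

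Kcnq3 and Kcnd2, other well-known voltage-gated potassium channel genes, were not called. Kcnq3, a subunit of the M-current channel, which dampens repetitive firing, was at 4.22 ± 1.06 and 4.04 ± 0.765 CPM, a log2 difference of -0.05 (95% interval -0.74 to 0.65). Kcnd2, an A-type channel, was at 11.5 ± 3.86 and 9.79 ± 3.70 CPM, a log2 difference of -0.26 (95% interval -0.89 to 0.38).

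Kcne2, a single-span auxiliary subunit found in stomach and choroid plexus, had 1, 2 and 0 counts in control against 11, 9, 16 and 6 in the libraries labelled Sox9. The ratio of scaled summed counts was 14.1 (95% counting interval 4.51 to 71.1), and its adjusted p was 0.00277. It was tested in 4 of the 7 fits that left out a library, and the call was lost without control replicate 1 or 4. Its relatives Kcne1 and Kcne4 were not tested, and both had no count in control, with 6, 5, 2 and 0 counts for Kcne1 and 3, 4, 1 and 5 for Kcne4 in the Sox9 group. Against a floor of 3 counts over the control group both sums are at least 4.36-fold higher, which leaves out the counting error of the 13 counts, and Kcne1 overlapped at 0 in Sox9 replicate 4. Kcne1l was at 4.49, 7.56 and 8.44 CPM in control and at 0, 4.06, 2.68 and 2.31 CPM in the Sox9 group, below control in every library, and was not called (log2 difference -1.55, SE 0.58, adjusted p = 0.0548). Kcne1l was singled out after its values were seen. Kcnab2, a cytoplasmic beta subunit of Shaker-type channels, was at 10.3 ± 3.48 and 16.3 ± 3.84 CPM (log2 difference 0.68, SE 0.27, adjusted p = 0.0663).

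Kcnn4, the intermediate-conductance calcium-activated channel, had 6, 3 and 4 counts in control against 29, 18, 16 and 9 in the Sox9 group. At 3.98 CPM Sox9 replicate 1 stood above the other Sox9 libraries at 1.70, 1.79 and 1.89 CPM, and all lay above control. The log2 fold change was 2.47 (SE 0.55, adjusted p = 0.00502), and the call was lost without Sox9 replicate 1 and without each control library in turn. Kcnn1, a small-conductance relative singled out after its values were seen, was at 3.78 ± 0.770 and 8.43 ± 2.19 CPM without overlap, and just missed the threshold (log2 difference 1.17, SE 0.30, adjusted p = 0.0108). Kcnma1, the large-conductance pore, was at 6.46 ± 1.89 and 6.17 ± 1.01 CPM, a log2 difference of -0.08 (95% interval -0.70 to 0.55).

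Kcnj16 (ENSMUSG00000051497, chr11:110968033-111027968, GRCm38, plus strand) encodes an inward rectifier subunit that works with Kcnj10, the main potassium channel of astrocytes. It had 2, 1 and 4 counts in control against 22, 23, 18 and 12 in the libraries labelled Sox9, or 0.228 ± 0.163 against 2.43 ± 0.447 CPM. All Sox9 libraries were above all control libraries. The log2 fold change was 3.36 (SE 0.58, adjusted p = 0.00117), and it passed the test without any single library. With cyclic loess scaling and limma it was not called (log2 difference 1.26, adjusted p = 0.0495). Kcnj10 was at 2.01, 3.21 and 4.58 CPM in control and at 1.51, 1.51, 1.45 and 2.52 CPM in the Sox9 group. The groups overlapped and it was not called, with a log2 difference of -0.93 (SE 0.42, adjusted p = 0.0975).

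On the chromosome, Kcnj16 and Kcnj2 are neighbors and lie 1754 and 1705 kb upstream of Sox9, on chromosome 11. Kcnj2, a strong inward rectifier, was at 2.68, 2.08 and 1.63 CPM in control and at 4.81, 5.01, 6.48 and 2.73 CPM in the libraries labelled Sox9. The groups did not overlap, by a narrow margin at Sox9 replicate 4, and it was not called (log2 difference 1.17, SE 0.38, adjusted p = 0.0288). Kcnj6, a subunit of G protein-gated channels, was at 1.15, 0.174 and 2.85 CPM in control and at 9.89, 4.06, 5.37 and 6.08 CPM in the Sox9 group and was not called either (log2 difference 2.20, SE 0.58, adjusted p = 0.0118). Leaving out 1 library gave Kcnj6 log2 differences of 1.65 to 3.28, with a call in 1 of the 7 fits. Kcnj8, a pore of ATP-sensitive channels known from mural cells, was at 1.503 ± 1.05 and 5.04 ± 1.26 CPM (log2 difference 1.73, SE 0.50, adjusted p = 0.0184). The mural marker Abcc9, the regulatory partner of Kcnj8, was at 1.31 ± 0.431 and 3.64 ± 1.34 CPM and was not called (log2 difference 1.46, SE 0.45, adjusted p = 0.0239). Of the other mural markers outside the oligodendrocyte precursor list, Rgs5 was also above control in every Sox9 library (log2 difference 0.97, adjusted p = 0.0352). Acta2 (1.85, adjusted p = 0.0403) and Pdgfrb (-1.03, adjusted p = 0.304) overlapped between the groups, and none of the 3 was called. The part of mural cells in the Kcnj8 values was not tested. Kcnj2, Kcnj6 and Kcnj8 were singled out after their values were seen.

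Kcnk2, a mechanosensitive K2P channel and the most abundant potassium channel gene, was at 63.3, 61.0 and 62.9 CPM in control and at 37.5, 61.8, 73.6 and 41.3 CPM in the Sox9 group. Sox9 replicates 1 and 4 were low and replicate 3 was high, so that the spread was wide (log2 difference -0.21, 95% interval -0.63 to 0.21).

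**Figure D3:**
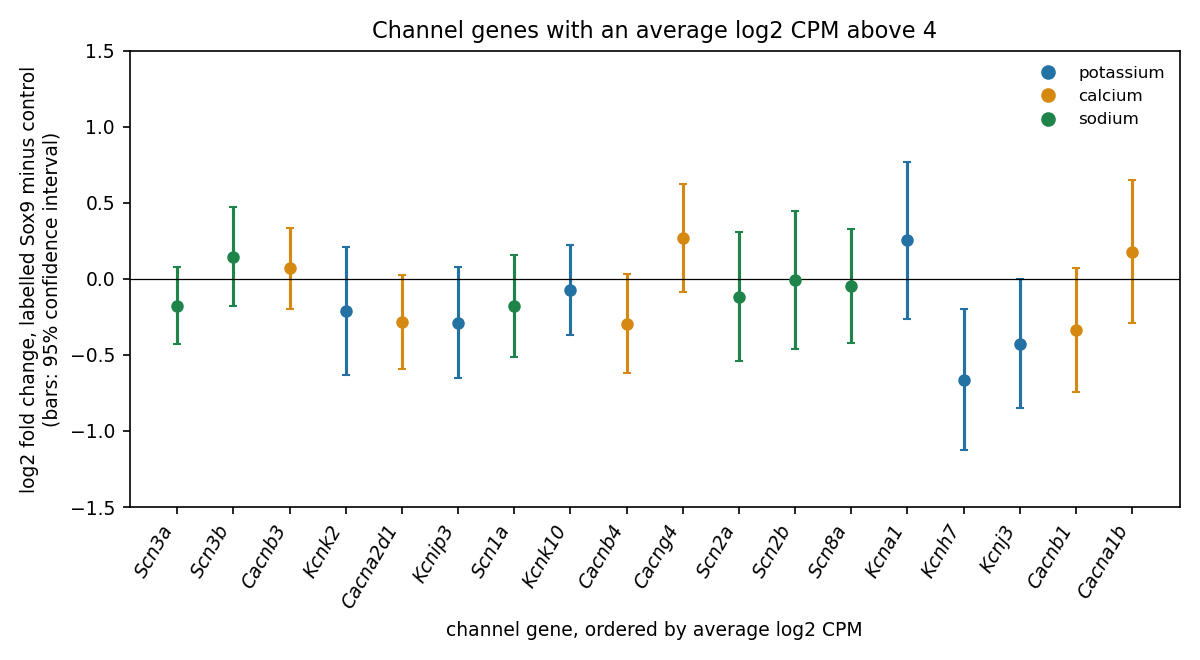
Log2 fold change of the libraries labelled Sox9 against control (y axis) with its 95% interval as bars for 18 channel genes with an average log2 CPM above 4 (x axis, from the most abundant), colored by ion. None passed the test, and the interval of Kcnh7, from -1.13 to -0.20, lies below 0, as does that of Kcnj3 by a narrow margin.

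Of 14 sodium channel genes, 11 were tested, and 3 rose and none fell, with a median log2 fold change of 0.15. The 3 are 27.3% of the 11, beside 9.96% higher and 3.88% lower of all protein-coding genes, and Scn4a and Scn10a needed libraries labelled Sox9 to pass the filter. Scn4a and Scn10a had an average log2 CPM under 1, where 21.6% of all protein-coding genes rose. Scn7a lay between 1 and 4, where 17.1% rose. The genes that rose are not the abundant ones. Scn7a (chr2:66673425-66784914, GRCm38, minus strand) encodes an atypical channel that senses extracellular sodium and is known from glia of the sensory circumventricular organs. It was at 2.68, 1.48 and 7.43 CPM in control against 20.3, 8.41, 10.4 and 14.9 CPM in the libraries labelled Sox9. Control replicate 4 was high for its group, at 73 counts, and the groups were separated by a small gap. The log2 fold change was 1.81 (SE 0.45, adjusted p = 0.00889), and the call was kept in 2 of the 7 fits that left out a library, those without control replicate 4 or Sox9 replicate 2. Over these 7 fits the log2 fold change was 1.4 to 2.71.

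Scn4a, the sodium channel of skeletal muscle, had 2, 5 and 3 counts in control against 12, 22, 18 and 8 in the Sox9 group. Scn10a, a channel of nociceptive neurons, had 4, 1 and 2 counts in control against 15, 7, 23 and 7 in the Sox9 group. Neither gene had overlapping groups in CPM. Their log2 fold changes were 2.53 (SE 0.52, adjusted p = 0.00334) and 2.85 (SE 0.68, adjusted p = 0.0068), and both calls were lost without any 1 of the 3 control libraries. Scn4a was tested in all 7 fits that left out a library and called in 4. Scn10a passed the filter in 4 of them and was called in 1, the one without Sox9 replicate 2. Scn9a and Scn11a, which also belong to peripheral sensory neurons, were at 2.99 ± 1.31 and 7.01 ± 1.81 CPM and at 1.86 ± 0.738 and 4.97 ± 1.25 CPM. Both were above control in every Sox9 library and were not called (log2 differences 1.22 and 1.40, adjusted p = 0.0247 and 0.0166).

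Scn3a, the sodium channel pore of embryonic brain, was the most abundant of all channel genes, at 171, 207 and 185 CPM in control and 150, 180, 180 and 155 CPM in the Sox9 group. The groups overlapped, with a log2 difference of -0.18 (95% interval -0.43 to 0.08). The other pores of central neurons gave intervals around 0 as well. Scn1a was at 47.3 ± 8.98 and 41.8 ± 4.14 CPM (95% interval -0.51 to 0.16), Scn2a at 38.4 ± 11.3 and 35.2 ± 4.84 CPM (-0.54 to 0.31), and Scn8a at 29.2 ± 1.41 and 28.2 ± 5.55 CPM (-0.42 to 0.33). Of the beta subunits, which anchor and modulate the pores, Scn3b was at 92.3 ± 23.6 and 102 ± 4.52 CPM (-0.18 to 0.47) and Scn2b at 35.8 ± 13.6 and 35.6 ± 4.71 CPM (-0.46 to 0.45). Scn4b was not tested and had at most 11 counts in any library. Per kilobase of exon, the control levels were highest for Scn3b at 16.9 CPM, Cacnb3 at 16.8 CPM, Scn3a at 15.1 CPM, Kcnip3 at 14.8 CPM and Kcnk2 at 12.6 CPM per kb. Whether introns were counted is not given, so this order is uncertain.

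**Figure D4:**
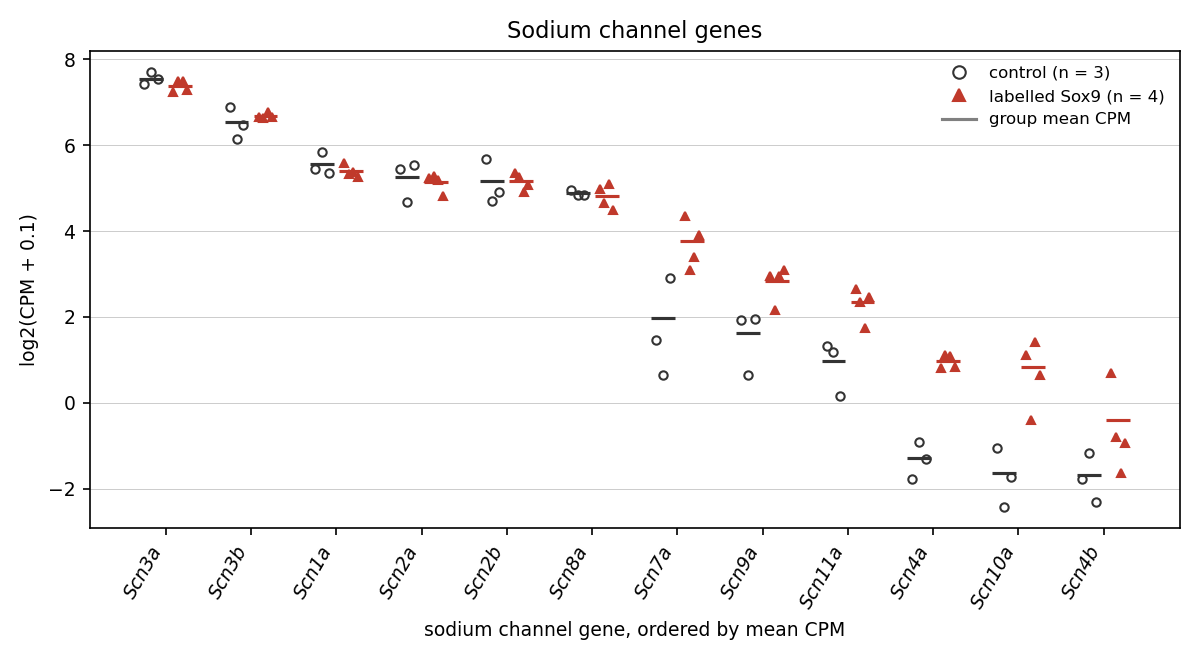
Log2(CPM + 0.1) in each of the 7 libraries (y axis) for 12 sodium channel genes (x axis, ordered by mean CPM), with open circles for control, triangles for the libraries labelled Sox9 and lines at the mean CPM of a group. Scn3a, Scn3b and the other abundant genes overlap between the groups, while Scn7a, Scn9a, Scn11a, Scn4a and Scn10a are higher in all 4 Sox9 libraries.

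Genes that work with these channels, 37 in number and outside the symbol rule, covered HCN and NALCN channels, fibroblast growth factor homologous factors, axon initial segment proteins, sodium pumps and chloride cotransporters. Of the 31 tested, 3 rose and 2 fell, with a median log2 fold change of 0.17. The 3 are 9.68% of those tested, beside 9.96% higher of all protein-coding genes, so the share is near that of all genes. Of the 3, Unc80 and Slc12a5 needed libraries labelled Sox9, the group where they are high, to pass the filter. Unc80, a subunit of the NALCN leak channel, rose with a log2 fold change of 1.72 (SE 0.42, adjusted p = 0.00751). Sptbn4, the spectrin of the axon initial segment, was at 1.15, 1.39 and 1.73 CPM in control and 5.49, 3.50, 4.70 and 4.19 CPM in the Sox9 group (log2 fold change 1.64, SE 0.37, adjusted p = 0.00558). Slc12a5, the neuronal chloride extruder, rose with a log2 fold change of 1.88 (SE 0.47, adjusted p = 0.00843). Fgf11, a factor homologous to those that bind sodium channel tails, was at 15.0, 18.5 and 15.9 CPM in control and 6.87, 9.54, 7.04 and 8.18 CPM in the Sox9 group (log2 fold change -1.05, SE 0.22, adjusted p = 0.00319). Ank2, an ankyrin of the axon, fell from 146 ± 12.6 to 102 ± 9.66 CPM (log2 fold change -0.52, SE 0.12, adjusted p = 0.00611). Ank2 kept its call in 1 of the 7 fits that left out a library, the one without Sox9 replicate 3, and Fgf11 in 4, losing it without control replicate 2, Sox9 replicate 1 or Sox9 replicate 3. Unc80, Sptbn4 and Slc12a5 each kept theirs in 2 of the 7. The count of risen partner genes was 0 without control replicate 1, control replicate 2, Sox9 replicate 1 or Sox9 replicate 3, where 4.60% to 6.30% of all protein-coding genes rose.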

How the data were processed

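Polyadenylated RNA of High RFP cells was sequenced in 7 libraries, with cDNA primed by poly-dT and amplified by PCR without molecular identifiers. Per the labels' processing notes, bcl2fastq 2.17.1.14 and STAR 2.5.2b were used, with GRCm38 (mm10) as build. Raw gene counts were deposited as whole numbers keyed by Ensembl identifier and not normalized. The counting program and its use of strand and introns are not given in the sources used here. CPM in the text were computed with edgeR on TMM-scaled library sizes. The authors also deposited FPKM values, which served for 1 alternative filter. For 95.4% of 6791 genes the length behind these FPKM was within 10% of the gene span, and for 2.47% within 10% of the exonic length, so FPKM levels are not reported.

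Symbols, biotypes and coordinates came from GENCODE M21 annotation of GRCm38. Groups followed the sample titles, and replicate numbers are those of the titles. The test was that of edgeR 4.0.16, run in R 4.3.3 (TMM scaling, filterByExpr, two-sided quasi-likelihood test without covariates), and the Benjamini-Hochberg adjustment covered the 16522 genes that passed, at a threshold of 0.01. Standard errors were obtained as log2 fold change over root F. Counting intervals and floors (3 counts over a group, 95% exact intervals) cover counting error only. Alternatives were DESeq2 1.42.0, DESeq2 size factors in edgeR, cyclic loess with limma 3.58.1, other filters, a threshold of 0.05, a replicate block and leaving out each library. The edgeR, DESeq2 and loess fits were also run on simulated counts, with a single dispersion and known changes at random genes. These counts lacked the dependence of change on level seen here. The outcome is not given, and no conclusion is drawn from it. Summaries used Python 3.11.15, pandas 2.3.3 and scipy 1.17.1.

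The channel genes, partner genes and marker lists were chosen with earlier results of these data known. Genes named in the text were the called channel genes, a fixed set of reference channels with all sodium channel genes, the 3 of highest CPM for each ion and the called partner genes, and a few others stated as chosen later. Exons of 38 channel genes overlap another gene, so their counts are uncertain. A few genes that the symbols or the naming rule cover are not reported by name here.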

Additional observations from a re-analysis of the deposited data

Results flagged for a closer look

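In the 4 libraries labelled Sox9, 1 library stood apart from the other 3 for 4 of 49 values compared (the genes followed across alternatives and the summed CPM of all channel genes), by the gap to its nearest neighbor as a share of the range, where chance gives about 5% of groups. These were Kcnd2 in Sox9 replicate 4 (15.3 CPM), Kcnj10 in Sox9 replicate 4 (2.52 CPM), Kcnn4 in Sox9 replicate 1 (3.98 CPM) and Scn3b in Sox9 replicate 3 (109 CPM). Sox9 replicate 4 has the smallest total count. The number of control libraries, 3, was too small for the same comparison.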

How the results depend on the processing

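Precision at low counts was not tested by thinning the libraries. No scaling turned the direction of a called channel gene. The counts of channel genes called are given as higher/lower, with 15/1 as reported (potassium 7/0, sodium 3/0, calcium 5/1, partner genes 3/2), and each is set beside the percent of all protein-coding genes tested that was called in each direction (9.96/3.88 as reported). DESeq2 gave 20/2 (potassium 12/1), beside 10.2/8.79. Cyclic loess with limma gave 2/1 (potassium 1, sodium 0 and calcium 1 higher, partner genes 0/1), beside 2.18/1.77. Without a filter the counts were 24/3 (potassium 16/2, partner genes 5 higher), beside 9.58/6.97. With at least 10 counts in every library they were 4/0 (potassium 1, sodium 1, calcium 2/0, partner genes 1/0), beside 5.05/1.82, and with a mean FPKM of at least 1, where 10 channel genes were tested, 0/0 (potassium 0, sodium 0, calcium 0/0, partner genes 0/0), beside 1.16/1.56, since fewer genes remain. At a threshold of 0.05 they were 32/2 (potassium 18/1, sodium 5, calcium 9, partner genes 8 higher), beside 18.55/12.2. For changes other than in the genes tested the cause was not tested. Without each library in turn the range was 8 to 14 higher and 1 to 1 lower (potassium 4 to 9, sodium 0 to 3, calcium 4 to 5, partner genes 0 to 3 higher and 0 to 2 lower), beside 4.60 to 8.93 higher and 1.36 to 3.12 lower.

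Deviations of libraries with the same title number correlated at -0.036 (number 1), 0.118 (number 2) and -0.0048 (number 4). The largest correlations with another number were 0.067, 0.0078 and 0.078. With 3 control and 4 Sox9 libraries these values cannot decide whether the numbers pair the libraries. A replicate block by titles gave 4/1 (potassium 1, sodium 0 and calcium 3 higher, partner genes 0/0), beside 2.38/1.49, and a replicate block by the descriptions' numbers 8/1 (potassium 4 and sodium 0 higher, partner genes 1/1), beside 5.90/2.40. With the block by titles Kcnv2 (log2 difference 3.97, adjusted p = 0.0147), Kcnj16 (3.51, adjusted p = 0.011) and Cacnb2 (1.96, adjusted p = 0.0109) were not called.

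Genes near 0 changed sign, all uncalled. Log2 differences were -0.0124 with DESeq2, -0.0119 with its size factors and -0.0176 without a filter for Cacnb3. With loess they were 0.0405 for Scn1a, 0.109 for Scn2a, 0.239 for Scn2b, 0.0735 for Scn3a and 0.106 for Scn8a. With at least 10 counts they were 0.0635 for Kcnma1, 0.0931 for Kcnq3, 0.0225 for Scn2a, 0.135 for Scn2b and 0.0949 for Scn8a. With a mean FPKM of at least 1 they were 0.192 for Scn2b and 0.0229 for Scn3a, and with protein-coding genes alone 0.0328 for Scn2b. The replicate block by titles gave 0.0367 for Kcnma1 and 0.123 for Scn2b, and that by descriptions 0.0619 for Kcnq3, 0.0166 for Scn2a, 0.0711 for Scn2b and 0.0365 for Scn8a. Leaving out 1 library gave ranges of -0.472 to 0.0576 for Kcnd2, -0.247 to 0.156 for Kcnma1, -0.136 to 0.16 for Kcnq3, -0.34 to 0.0554 for Scn2a, -0.181 to 0.33 for Scn2b, -0.00238 to 0.344 for Scn3b and -0.127 to 0.105 for Scn8a.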

Other observations

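Of the 40 channel genes too scarce to be tested, 9 had higher CPM in every library labelled Sox9 than in every control library, and none was lower in every one. This is 22.5%, beside 14.4% higher and 0.489% lower of the 5929 untested protein-coding genes with the same range of 1 to 70 counts in all, and with so few counts nothing particular to channel genes is read from it. Kcnk9, an acid-sensitive K2P channel, had 1, 0 and 1 counts in control against 13, 9, 7 and 2 in the Sox9 group, a ratio of scaled counts of 15.6 (95% counting interval 3.97 to 134.6). Kcnk16, a K2P channel known from pancreas, had 1, 0 and 0 against 4, 7, 17 and 5 counts, a ratio of 33.2 (5.56 to 1352). Cacng1, a gamma subunit of skeletal muscle calcium channels on the same stretch of chromosome 11 as Cacng5, had 0, 1 and 1 against 5, 6, 13 and 1 counts, a ratio of 12.6 (3.14 to 109.7). Intervals cover counting error only, and these genes were picked after their values were seen. The others were Cacna2d2, Kcna7, Kcng4, Kcne4, Kcnj14 and Kcnj15.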
